A study of Mus musculus with 8 samples.

Results

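The Lin28, Hmga and Igf2bp genes are growth regulators of the embryo and fetus that the let-7 microRNAs hold down as tissues mature. The genes described here were taken from this list of names and not by their values. All 7 of 7 (Lin28a, Lin28b, Hmga1, Hmga2, Igf2bp1, Igf2bp2 and Igf2bp3) were present among the 24980 genes of the count table, and all 7 passed the filter on low counts that left 17582 genes to test. Mouse muscle progenitors of 4 groups had been profiled by RNA-seq, each in 2 biological replicates. Freshly isolated teratoma-derived progenitors (TF) came from E14-EGFP embryonic stem cells, a single EGFP-labelled line, that had formed teratomas in irradiated, cardiotoxin-injured tibialis anterior muscle of NSG-mdx4Cv mice, which lack dystrophin and most of their immune system. They had been sorted as EGFP-positive, CD31- and CD45-negative cells carrying α7-integrin and VCAM-1. Expanded teratoma-derived cells (TE) were such progenitors after culture to passage 8. Satellite cells, the resident stem cells of adult muscle, were studied freshly isolated (SF) and at passage 8 (SE). The mouse strain of the satellite cells was not given in the sources used here, so cell origin, strain and the embryonic stem cell line cannot be told apart between the teratoma-derived and satellite cell groups.

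LIN28A and LIN28B are RNA-binding proteins that block the maturation of let-7, and LIN28A also recruits the uridylyl transferases that mark the let-7 precursor for decay. HMGA1 and HMGA2 are small proteins that bind AT-rich DNA and bend chromatin, and IGF2BP1, IGF2BP2 and IGF2BP3 bind and stabilise mRNAs, among them that of the growth factor IGF2. Mature let-7 pairs through its seed with sites in the 3′ UTRs of these genes. In muscle, Lin28 and let-7 are known for the timing of growth and differentiation, and Hmga2 and Igf2bp2 for the proliferation of activated satellite cells and myoblasts.

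The sequences that join the genes to let-7 are shown first. Among 10 let-7 loci in RefSeq (GRCm38.p6) there were 8 distinct mature 5p sequences with 1 shared seed, bases 2 to 8, which is in capitals in these 4 examples.
mmu-let-7a-5p: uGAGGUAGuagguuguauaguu
mmu-let-7c-5p: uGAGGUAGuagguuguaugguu
mmu-let-7e-5p: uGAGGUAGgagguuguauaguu
mmu-let-7g-5p: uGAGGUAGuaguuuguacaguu
The DNA letters that pair with this seed are CTACCTC, and they were searched on the sense strand of the longest annotated 3′ UTR of each gene (GENCODE M21, GRCm38). All 7 genes held at least 1 match, 17 in total, whereas 9.22% of 20196 mouse 3′ UTRs did. The 3′ UTRs of the 7 genes were between 1183 and 6337 bases long, longer than the median of 992 bases. Lin28b, Hmga2 and Igf2bp1 held 4 matches each, Lin28a held 2, and Hmga1, Igf2bp2 and Igf2bp3 held 1 each. Of 2406 3′ UTRs close in length to that of Hmga2 (the shorter at least 0.8 times the longer), 16.1% held a match and 0.125% held 4 or more. Among 3′ UTRs matched in length in the same way, the share with at least as many matches as the gene itself was 0.298% for Lin28b, 0.333% for Igf2bp1 and 2.08% for Lin28a, but 8.04% for Hmga1, 12.2% for Igf2bp2 and 13.4% for Igf2bp3. The genes are textbook let-7 targets, so these matches describe why they are listed together and are no measure of let-7 activity.

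The match closest to the stop codon of each gene is printed on the sense strand, with the 7 bases that pair with the seed in capitals.
Lin28a, chr4:134005189-134005211, minus strand: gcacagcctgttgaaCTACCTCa
Lin28b, chr10:45381022-45381044, minus strand: acccgggcgggaagtCTACCTCa
Hmga1, chr17:27563277-27563299, plus strand: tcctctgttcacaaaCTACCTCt
Hmga2, chr10:120364224-120364246, minus strand: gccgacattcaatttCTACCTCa
Igf2bp1, chr11:95961778-95961800, minus strand: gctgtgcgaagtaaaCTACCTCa
Igf2bp2, chr16:22059473-22059495, minus strand: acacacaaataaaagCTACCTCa
Igf2bp3, chr6:49086787-49086809, minus strand: tgcatttttactcaaCTACCTCa
In 9 of the 17 matches the base after the capitals was an A, the base that makes a seed match stronger in general. The one match in Hmga1 lacked it, and the matches in Igf2bp2 and Igf2bp3 had it.

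**Figure D1:**
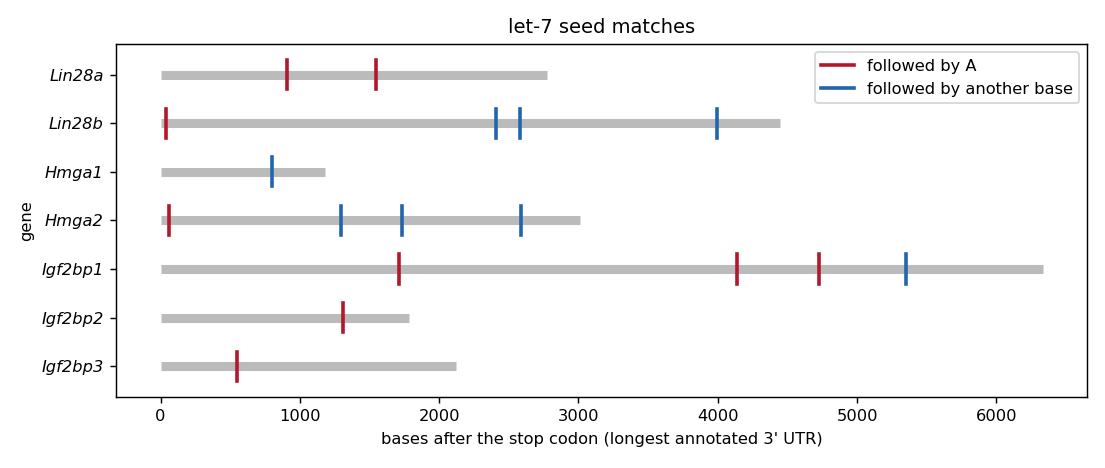
Matches to the let-7 seed along the longest annotated 3′ UTR of each gene, with the distance from the stop codon in bases on the x axis and 1 row per gene. Grey bars are the 3′ UTRs, and red and blue marks are matches followed by A or by another base. Lin28b, Hmga2 and Igf2bp1 carry 4 marks each.

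Library totals ranged from 11930961 to 21146632 estimated counts. Levels are CPM, counts divided by library size, with TMM scaling, and 3 counts, the limit that a count of 0 allows, correspond to between 0.141 and 0.252 CPM. These limits cover counting error only. Genes were called at an adjusted p below 0.05 and a log2 fold change above 0.32 in size with edgeR's quasi-likelihood test and Benjamini-Hochberg adjustment over all 17582 genes, and every adjusted p here is from that test unless another is named. Errors on log2 fold changes are standard errors. All 8 myogenic markers (among them Pax7, Myod1 and Des) had over 3 counts in every library, with a summed level between 1357 and 4207 CPM. The 9 pluripotency markers summed to 9.42 and 2.23 CPM in TF, 15.1 and 7.91 CPM in SF, and at most 4.51 CPM in cultured cells. Nanog had 119 and 112 counts in SF and at most 19 elsewhere, and Pou5f1 had 8 counts in TF replicate 1 and 0 or 1 elsewhere. Most lists of markers of other cells were higher in the fresh groups than in the cultured groups. The 6 fibro-adipogenic markers summed to 3836 and 4576 CPM in TF, 596 and 980 CPM in SF, and at most 81.0 CPM in cultured cells. The 6 endothelial markers summed to between 69.6 and 355 CPM in the fresh libraries and to at most 2.22 CPM in cultured ones. The 5 haematopoietic markers summed to 325 CPM in TF replicate 1 and to between 22.7 and 29.0 CPM in the other fresh libraries. The 5 pericyte and smooth muscle markers summed to between 589 and 820 CPM in fresh and between 63.4 and 130 CPM in cultured libraries, and the 5 visceral endoderm markers to between 8.01 and 35.3 CPM and at most 0.40 CPM. The summed level of the 7 neural progenitor markers went the other way. The sums were 308 and 281 CPM in TF, 2546 and 2452 CPM in TE, 104 and 108 CPM in SF, and 1420 and 1687 CPM in SE. Nes, which is also known from muscle progenitors, gave 2536 and 2445 CPM of this sum in TE and 1408 and 1676 CPM in SE, and Sox2 was at 0 in both libraries of each cultured group. Counted singly, 1 of the 7 was called higher and 4 lower in TE versus TF (9.86% and 16.2% of all tested genes). In SE versus SF, 2 were higher and 2 lower (20.9% and 19.8% of all tested genes). Every fresh to cultured difference below moves with these marker levels, and their part in it was not tested. In these bulk samples, fewer cells that express a gene and less RNA per cell cannot be told apart.

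The 7 genes did not move as a block. Hmga1, Hmga2 and Igf2bp2 rose from fresh to cultured cells in both lineages (Hmga1 in teratoma-derived cells only as counted apart from its copy Hmga1b). Igf2bp1 was high in the teratoma-derived cells after culture, and Igf2bp3 was lowest in cultured satellite cells. Lin28a was near the detection limit in most libraries, and Lin28b was low, with at most 1.77 CPM outside SF.

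**Figure D2:**
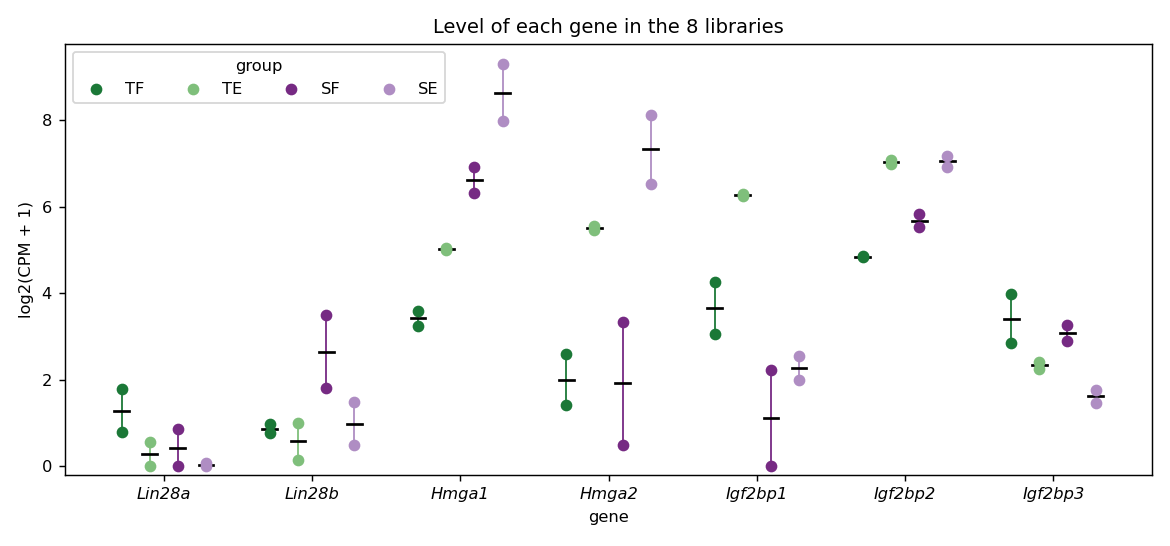
Level of each gene in the 8 libraries as log2(CPM + 1) on the y axis, with the 7 genes on the x axis. Dots are libraries, coloured by group, lines join the 2 replicates and black bars are their means. Hmga1, Hmga2 and Igf2bp2 sit higher in both cultured groups than in the fresh group of the same lineage.

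Lin28a, the form of LIN28 that works mainly in the cytoplasm, had 29 and 9 counts in TF, 0 and 9 in TE, 11 and 0 in SF, and 1 and 0 in SE. On the CPM scale these were levels of 2.44 and 0.718 in TF, 0 and 0.467 in TE, 0.799 and 0 in SF, and 0.0471 and 0 in SE. TF was the only group in which both libraries were above the 3-count limit. Lin28a passed no comparison (adjusted p between 0.308 and 0.914, edgeR), and a difference could not be resolved at this depth. TF replicate 1, the library with the highest Lin28a level, was also the one with 325 CPM of haematopoietic markers and 8 counts of Pou5f1. The genes with the most similar profile were Nlrp3, Fcgbp and Pigr (Pearson r = 0.948, 0.942 and 0.939 over log2(CPM + 1) in the 8 libraries). Each was highest in TF replicate 1, with 41.8, 40.3 and 33.5 CPM, against at most 3.11, 5.58 and 3.92 CPM elsewhere. These likenesses therefore lean on that library.

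Lin28b, which can act in the nucleus on the primary let-7 transcript, had 10.2 and 2.48 CPM in SF. Its levels were 0.692 and 0.959 CPM in TF, 1.01 and 0.104 CPM in TE, and 0.402 and 1.77 CPM in SE. Both SF libraries were above all 6 others, but they differed by more than the gap to the rest. No comparison passed the test. The log2 difference was -2.95 ± 1.40 in TF versus SF (adjusted p = 0.155, edgeR) and -2.53 ± 1.36 in SE versus SF (adjusted p = 0.157).

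Hmga1 was the most abundant of the genes per length in satellite cells, with between 118 and 295 CPM per kb of exon in SE. It had 8.48 and 11.0 CPM in TF, 31.1 and 31.7 CPM in TE, 78.8 and 119 CPM in SF, and 628 and 251 CPM in SE. The 4 groups did not overlap, in the order TF, TE, SF and SE. Hmga1 rose in culture by 1.68 ± 0.40 on the log2 scale in teratoma-derived cells (adjusted p = 0.0131, edgeR) and by 2.15 ± 0.39 in satellite cells (adjusted p = 0.00191). It was lower in teratoma-derived than in satellite cells, with a log2 difference of -3.34 ± 0.42 when fresh (adjusted p = 0.000723) and -3.81 ± 0.42 when cultured (adjusted p = 0.000807). Without TF replicate 1 the rise in teratoma-derived cells no longer passed (adjusted p = 0.0535), and without SE replicate 1 the log2 difference between SE and SF was 1.36.

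These Hmga1 values cannot be read alone, because the table also lists Hmga1b, a copy of the Hmga1 transcript without introns on chromosome 11 (chr11:120762794-120764419, plus strand; Hmga1 is at chr17:27556497-27563674, plus strand). The Hmga1 and Hmga1b transcripts (GENCODE M21, GRCm38) aligned over 1602 bases with 3 differing bases and 0 gaps. The differences lay at positions 27562729, 27562856 and 27563318 of chromosome 17, all in the 3′ UTR. Of the stretches of 31 bases in Hmga1b, 92.7% also occur in Hmga1. Reads from the 2 genes can hardly be told apart, and the program that made the counts shares them out.

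The share of the pair's counts that was given to Hmga1b differed by lineage. It was 84.4% and 55.7% in TF, 70.1% and 66.8% in TE, 0.721% and 0.605% in SF, and 0.431% and 0.229% in SE. The level of Hmga1b was 45.9 and 13.9 CPM in TF and 72.7 and 63.9 CPM in TE, against 0.572 and 0.726 CPM in SF and 2.72 and 0.576 CPM in SE. It was higher in TF than in SF by 5.48 ± 0.80 on the log2 scale (adjusted p = 0.00146, edgeR) and in TE than in SE by 5.34 ± 0.74 (adjusted p = 0.00272). Whether the teratoma-derived cells transcribed Hmga1b, or carried bases that steered Hmga1 reads to it, was not tested.

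As a sum, Hmga1 plus Hmga1b had 54.4 and 24.9 CPM in TF, 104 and 95.6 CPM in TE, 79.4 and 120 CPM in SF, and 631 and 252 CPM in SE. TE then fell inside the range of SF, and SE stayed above all other libraries. The sum was higher in SE than in SF by 2.15 ± 0.46 (adjusted p = 0.00486, edgeR) and lower in TE than in SE, with a log2 difference of -2.15 ± 0.46 (adjusted p = 0.022). The differences of 1.33 ± 0.45 in TE versus TF (adjusted p = 0.0568) and of -1.33 ± 0.46 in TF versus SF (adjusted p = 0.0604) did not pass. The rise of Hmga1 in cultured satellite cells and its lower level in TE than in SE were thus called with and without the copy, and the other 2 Hmga1 calls were not.

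**Figure D3:**
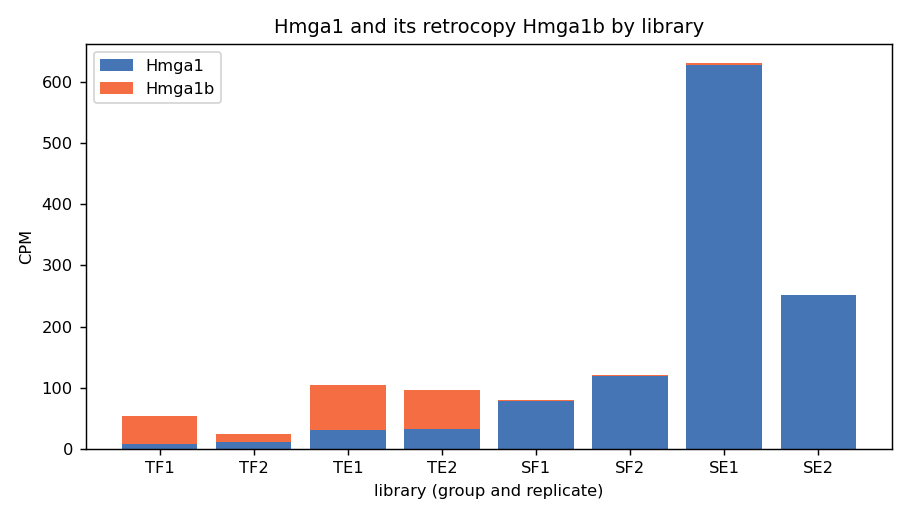
Stacked levels in CPM (y axis, from 0) of Hmga1 in blue and its intronless copy Hmga1b in orange in each of the 8 libraries (x axis). The copy takes between 55.7% and 84.4% of the counts in the 4 teratoma-derived libraries and under 1% in the 4 satellite cell libraries.

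Hmga2, the family member best known from fetal tissue and from self-renewing progenitors, gave the largest called difference among the 7 genes, in SE versus SF. Its levels were 5.00 and 1.68 CPM in TF and 46.2 and 43.2 CPM in TE. In satellite cells they were 9.10 and 0.411 CPM in SF and 279 and 91.3 CPM in SE. All 4 cultured libraries were above all 4 fresh ones, and the 2 replicates differed most in SF and SE. Hmga2 rose by 3.76 ± 0.99 on the log2 scale in TE versus TF, 13.5-fold (adjusted p = 0.0201, edgeR), and by 5.30 ± 1.02 in SE versus SF, 39.4-fold (adjusted p = 0.00271). The size of the second value varied with the SF library used. With SF replicate 2 (0.411 CPM) alone for SF the log2 difference was 8.82, and with SF replicate 1 (9.10 CPM) alone it was 4.37. Without TF replicate 2 the rise in teratoma-derived cells did not pass (adjusted p = 0.0667).

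The log2 difference of Hmga2 between TE and SE, -2.05 ± 0.86, did not pass (adjusted p = 0.22, edgeR). It did pass without SF replicate 2 (adjusted p = 0.0266), without SE replicate 2 (adjusted p = 0.0343) or without the filter on low counts. TF and SF overlapped (log2 difference -0.51 ± 1.0, adjusted p = 0.761). The table also holds Hmga2-ps1, a pseudogene of Hmga2 by its name, at 2.23 and 2.23 CPM in TF, 4.16 and 5.25 CPM in TE, 19.3 and 9.71 CPM in SF, and 4.59 and 4.06 CPM in SE. The pseudogene was lower in SE than in SF, with a log2 difference of -1.74 ± 0.56 (adjusted p = 0.0313), a direction opposite to that of Hmga2. It took 30.9% and 57.1% of the pair's counts in TF and 8.24% and 10.8% in TE. In satellite cells it took 67.9% and 95.9% in SF and 1.62% and 4.25% in SE. The pair was not fitted as a sum, so the 13.5-fold and 39.4-fold rises hold for counts listed under Hmga2 alone. How many of the reads listed under either name came from the other was not tested.

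Igf2bp1, the fetal mRNA-binding protein also known as ZBP1, had 18.2 and 7.26 CPM in TF and 76.8 and 75.0 CPM in TE. In satellite cells it had 3.63 and 0 CPM in SF and 2.97 and 4.86 CPM in SE. All 4 teratoma-derived libraries were above all 4 satellite cell libraries. Igf2bp1 was higher in TE than in SE by 4.28 ± 1.01 on the log2 scale, 19.4-fold (adjusted p = 0.033, edgeR), and DESeq2 put the same difference at 4.26 without calling it (adjusted p = 0.0954). The difference between TF and SF, 2.82 ± 1.01, did not pass (adjusted p = 0.0698), and neither did the rise of 2.58 ± 0.93 from TF to TE (adjusted p = 0.0679). Both lay close to the threshold. The rise from TF to TE passed in each fit without 1 of the 4 satellite cell libraries (adjusted p between 0.0012 and 0.0192), which leave the compared libraries in place, and in a fit of TE and TF alone (adjusted p = 0.00177). The difference between TF and SF passed without TF replicate 2 (adjusted p = 0.0371), SF replicate 1 (0.00224), SF replicate 2 (0.047), SE replicate 1 (0.0128) or SE replicate 2 (0.0211). Without the filter on low counts both passed, as did SE versus SF (adjusted p = 0.0162), whose log2 difference was 1.12 ± 1.0 (adjusted p = 0.384) with all libraries. That difference also passed without SF replicate 1 (adjusted p = 0.00275), where the library at 0 stood alone for SF.

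Igf2bp2, the only one of the 3 IGF2BP proteins that stays widely expressed in adult tissue, had the smallest standard errors of the 7 genes. Its levels were 27.4 and 28.0 CPM in TF, 134 and 126 CPM in TE, 44.9 and 55.6 CPM in SF, and 143 and 121 CPM in SE. The fresh groups did not overlap each other, and the cultured groups did. Igf2bp2 rose by 2.23 ± 0.20 on the log2 scale in TE versus TF, 4.70-fold (adjusted p = 5.12e-05, edgeR), and by 1.39 ± 0.19 in SE versus SF, 2.62-fold (adjusted p = 0.000401). Between TE and SE the log2 difference was -0.02 ± 0.19, with a 95% interval from -0.44 to 0.40 (adjusted p = 1). TF was lower than SF, with a log2 difference of -0.86 ± 0.19 (adjusted p = 0.0114), a call lost without TF replicate 1 (adjusted p = 0.087), TF replicate 2 (0.075) or SF replicate 2 (0.0531).

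Igf2bp3, the family member that is expressed in the embryo and reappears in tumours, had 14.9 and 6.14 CPM in TF, 4.34 and 3.74 CPM in TE, 8.63 and 6.39 CPM in SF, and 2.40 and 1.77 CPM in SE. Both cultured groups lay below both fresh groups, so its direction in culture was opposite to that of Igf2bp2. It was lower in SE than in SF, with a log2 difference of -1.84 ± 0.63 (adjusted p = 0.0399, edgeR), and the difference of -1.38 ± 0.61 in TE versus TF did not pass (adjusted p = 0.126). The call in satellite cells was lost without any 1 of SF replicate 1, SF replicate 2, SE replicate 1, SE replicate 2, TE replicate 1 or TE replicate 2 (adjusted p between 0.0564 and 0.154), and in a fit of SE and SF alone (adjusted p = 0.0687). Exons of Igf2bp3 share 1529 bases with Malsu1, a mitochondrial ribosome assembly gene on the opposite strand, which had between 3.91 and 11.8 CPM and passed no comparison. The library kit marks strand, but whether the counting used it is not given in the sources used here. Igf2bp3 lies on chromosome 6. The median log2 difference of the 912 tested genes of this chromosome was set beside that of the genes of all other chromosomes, pooled. The other chromosomes were not taken singly. The medians were -0.60 against -0.22 in SE versus SF, where Igf2bp3 was called, -0.47 against -0.16 in TE versus TF, and 0.50 against 0.06 in TF versus SF. In TE versus SE they were 0.39 against -0.02, beside 0.95 ± 0.62 for Igf2bp3 (adjusted p = 0.45). In the difference between the effects of culture they were close, at -0.13 against -0.17. The part of these chromosome-wide medians in the Igf2bp3 values was not tested.

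**Figure D4:**
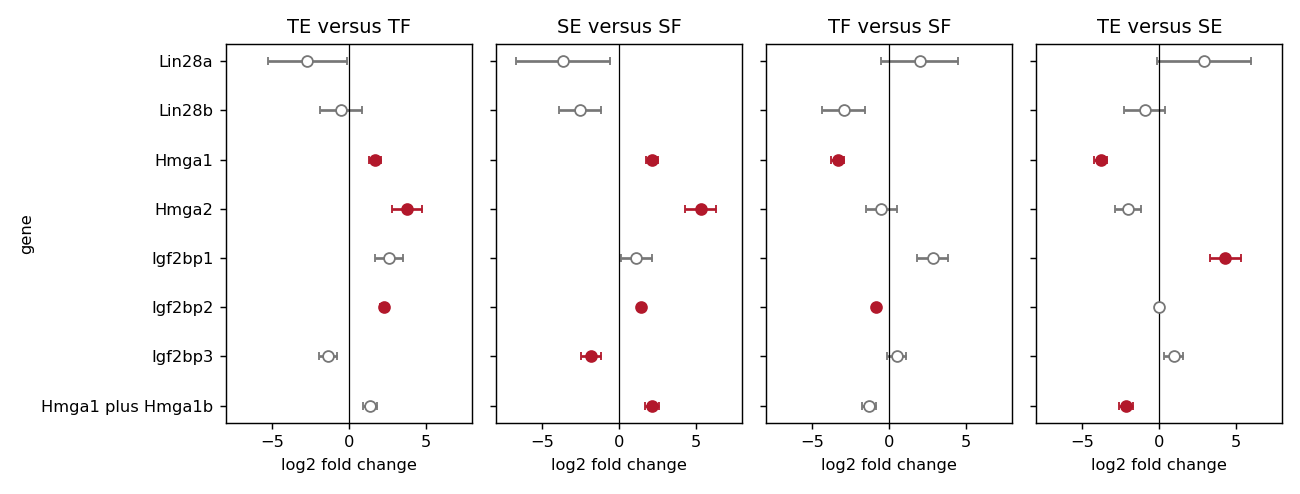
Log2 fold change (x axis) with its standard error for each gene and for Hmga1 plus Hmga1b (y axis) in 4 comparisons. Filled red points were called and open grey points were not. Hmga1, Hmga2 and Igf2bp2 are called to the right of 0 in both culture comparisons, and the sum of Hmga1 and its copy is not called in TE versus TF or TF versus SF.

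Counted over the 7 genes, 3 were called higher and 0 lower in TE versus TF, where 26.1% of all tested genes were called (9.86% higher and 16.2% lower). The median log2 difference was 1.68 over the 7 genes and -0.18 over all genes. In SE versus SF, 3 were called higher and 1 lower, where 40.7% of all genes were called (20.9% higher and 19.8% lower), with medians of 1.12 and -0.23. In TF versus SF, 0 were called higher and 2 lower against 24.2% of all genes (15.1% higher and 9.13% lower), with medians of -0.51 and 0.08. In TE versus SE, 1 was called higher (Igf2bp1) and 1 lower (Hmga1) against 7.21% of all genes (3.15% higher and 4.07% lower), with medians of -0.02 and -0.00339. With Hmga1b added to Hmga1, the numbers called were 2 in TE versus TF and 1 in TF versus SF. These comparisons share groups, and their values stand side by side here.

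The difference between the effects of culture, (TE versus TF) minus (SE versus SF), was called by edgeR for 0 of the 7 genes, where 14.3% of all genes were called (4.7% higher and 9.62% lower). At an unadjusted p under 0.05 there was 1, Igf2bp2, and DESeq2 called 1, the same gene. Its effect of culture was larger in teratoma-derived cells by 0.84 ± 0.27 on the log2 scale (adjusted p = 0.0658 with edgeR and 0.0085 with DESeq2). Scaling by median ratios, which moves the median of all genes in this comparison from -0.18 to -0.04, gave 0.98 (adjusted p = 0.0346), and without SF replicate 1 the value was 1.01 (adjusted p = 0.0404). For Hmga2 the difference was -1.54 ± 1.31 (adjusted p = 0.493, edgeR), called only without SF replicate 1 (adjusted p = 0.0299) or without the filter on low counts (adjusted p = 0.00124). For Igf2bp1 it was 1.46 (adjusted p = 0.534), called at 2.46 without SF replicate 2 (adjusted p = 0.0347) and at 1.44 without the filter (adjusted p = 0.0489), and at -6.42 without SF replicate 1 it was not called (adjusted p = 0.0825). Median-ratio scaling also moved the median of all genes in SE versus SF from -0.23 to -0.43 and in TF versus SF from 0.08 to -0.08, and no direction of the 7 genes changed with it.

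The profiles of the genes were compared over the 8 libraries, which share groups, as a description. Igf2bp2 and Hmga2 were the most alike (Pearson r = 0.835 over log2(CPM + 1)), and Igf2bp2 and Igf2bp3 ran in opposite directions (r = -0.843). The genes of the whole table most like Igf2bp2 were Preb, Disp1 and Cluh (r = 0.992, 0.991 and 0.983), and those most like Hmga2 were Ttc12, Ankrd6 and Dlx1 (r = 0.989, 0.986 and 0.984). Igf2bp1 ran with Myh6 and Stxbp4 (r = 0.975 and 0.969). Myh6, the cardiac alpha myosin heavy chain, had 91.3 and 113 CPM in TE and at most 9.43 CPM elsewhere. Hmga1 was most like Pitpnm1, Rpl30 and Trappc10 (r = 0.953, 0.949 and 0.948), and Hmga1 plus Hmga1b like Cited2, Abcc1 and Fryl (r = 0.984, 0.976 and 0.965). Igf2bp3 was most like Csrp1, Dnah10 and Dip2b (r = 0.981, 0.966 and 0.957), and Lin28b like 9930111H07Rik, Ripply3 and C230072F16Rik (r = 0.989, 0.986 and 0.968). The genes like Lin28b had 34.1, 21.9 and 60.3 CPM in SF replicate 1, against at most 4.31, 7.91 and 16.1 CPM elsewhere. Lin28b was also highest there, so these likenesses lean on that library.

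The machinery that makes and destroys let-7 was followed through 13 genes, all tested. They include Drosha and Dgcr8 (the nuclear microprocessor), Xpo5 (export), Dicer1 with Tarbp2 and Prkra (dicing), 4 Argonautes, the uridylyl transferases Tut4 and Tut7, and Dis3l2, the nuclease that degrades uridylated let-7 precursors. In TE versus TF, 5 were called higher and 0 lower, among them Xpo5 (1.12 ± 0.19 on the log2 scale, adjusted p = 0.0022), Dgcr8 (1.08 ± 0.21), Dicer1 (0.91 ± 0.20) and Tut4 (0.85 ± 0.19). In SE versus SF, 4 were higher and 0 lower, namely Prkra (1.62 ± 0.42), Dgcr8 (1.39 ± 0.22), Xpo5 (1.34 ± 0.19) and Drosha (1.16 ± 0.19). In TF versus SF, 3 were higher and 3 lower, with Prkra at 1.56 ± 0.43, Ago1 at 1.24 ± 0.27, Drosha at 0.97 ± 0.19 and Dis3l2 at -1.21 ± 0.30. The shares of all tested genes called were 26.1% in TE versus TF, 40.7% in SE versus SF and 24.2% in TF versus SF.

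Tut4, a partner of LIN28A in tagging the let-7 precursor, was the only one of the 13 called between TE and SE. Of all tested genes, 7.21% were called there. Tut4 had 193 CPM in both TE libraries, 110 and 103 CPM in TF, 80.5 and 106 CPM in SF, and 76.9 and 72.3 CPM in SE. The log2 difference between TE and SE was 1.37 ± 0.19 (adjusted p = 0.00279, edgeR). Its rise in TE versus TF did not pass without TF replicate 1 (adjusted p = 0.0547), TF replicate 2 (0.0747), TE replicate 1 (0.0647) or TE replicate 2 (0.0672). Calls that also failed without 1 library were those of Dicer1 in TE versus TF (TF replicate 1 or TE replicate 1), Prkra in SE versus SF (SF replicate 2) and TF versus SF (TF replicate 1, TF replicate 2 or SF replicate 2), and Dis3l2 (TF replicate 2 or SF replicate 2).

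The let-7 microRNAs themselves were not measured here. The 11 let-7 hairpin entries of the table held at most 20 counts in any library. Of 4 host genes of let-7 clusters, 2 were in the table. Huwe1 was lower in SE than in SF, with a log2 difference of -0.95 ± 0.26 (adjusted p = 0.0176, edgeR), and in TF than in SF (-0.94 ± 0.26, adjusted p = 0.029), and both calls were lost without SF replicate 2, the first also without SE replicate 2 and the latter without either TF replicate. Mir99ahg, with between 0.236 and 9.96 CPM, passed no comparison.

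Other known let-7 targets were split in direction. Of 20, 6 were called higher and 4 lower in TE versus TF (median log2 difference 0.53), and 6 higher and 5 lower in SE versus SF (0.22, also with Mycn at its bound). Over all tested genes, 26.1% were called in the first comparison and 40.7% in the second. The cell cycle genes Cdc34 (2.08 ± 0.25) and Ccnd1 (1.95 ± 0.39), which encode a ubiquitin-conjugating enzyme and cyclin D1, rose in TE versus TF. Irs2, an adaptor of the insulin and IGF receptors, fell by 2.63 ± 0.21 on the log2 scale (adjusted p = 2.82e-05, edgeR), and Thbs1, a matrix protein, had a log2 difference of -1.97 ± 0.20. In SE versus SF, Ccnd1 rose by 3.93 ± 0.42, Irs2 fell by 4.83 ± 0.23 and the transcription factor Myc fell by 4.42 ± 0.28. Mycn, a Myc relative of the embryo, had 7.56 and 11.2 CPM in SF and 0 counts in both SE libraries. Against the limit of 3 counts per library, SE was at least 54.8-fold below the SF mean.

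Between the fresh groups 2 of the 20 targets were higher and 2 lower in TF, among them Ccnd2 at 2.64 ± 0.26, Myc at -2.57 ± 0.26 and Irs2 at -0.97 ± 0.20. Between the cultured groups 3 were higher and 1 lower in TE. Over all tested genes, 24.2% were called between the fresh groups and 7.21% between the cultured groups. Mycn had 7.77 and 11.7 CPM in TE, with a mean at least 56.8-fold above SE. Irs2 was higher by 1.23 ± 0.20, and Ccnd1 differed by -1.62 ± 0.38 (adjusted p = 0.0342, edgeR). The calls that failed without 1 library included those of Irs2 between fresh groups (either TF replicate) and between cultured groups (TE replicate 1) and of Ccnd1 between cultured groups (either TE replicate or SE replicate 1).

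**Figure D5:**
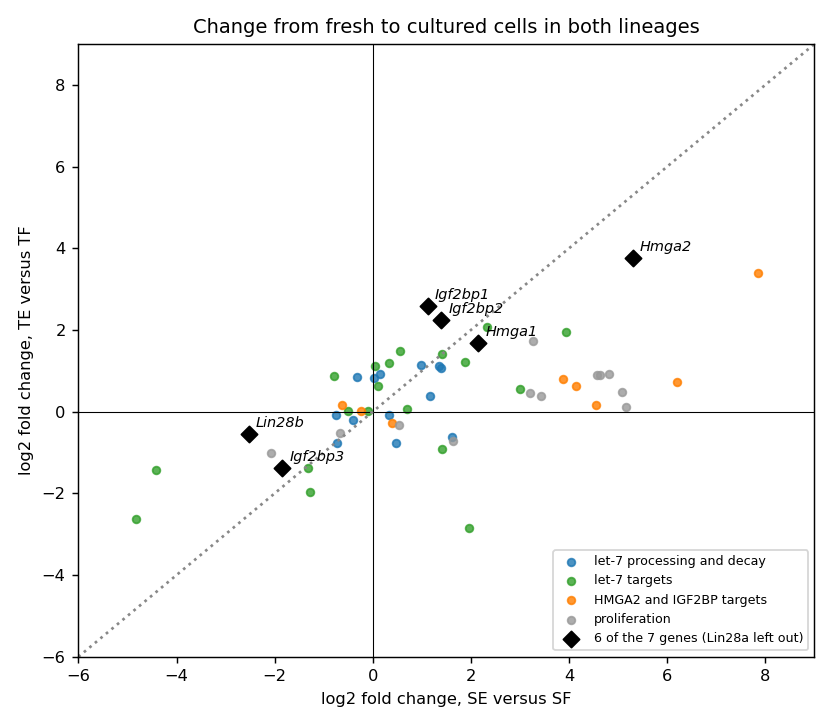
Log2 fold change from fresh to cultured cells in teratoma-derived cells (TE versus TF, y axis) against satellite cells (SE versus SF, x axis), which share no libraries. Black diamonds are 6 of the 7 genes and coloured dots are genes of 4 lists, with Lin28a and genes at 0 in every library of a group left out. The dotted line marks equal change. Hmga1, Hmga2, Igf2bp1 and Igf2bp2 lie in the upper right, and Lin28b and Igf2bp3 in the lower left.

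Genes reported to act downstream of HMGA2 or to be bound by IGF2BP proteins were counted apart (9 genes). In TE versus TF, 1 was called higher and 1 lower. In SE versus SF and in TF versus SF, 6 were called higher and 1 lower each, and in TE versus SE 1 higher and 1 lower. The shares of all tested genes called were 26.1% in TE versus TF, 40.7% in SE versus SF, 24.2% in TF versus SF and 7.21% in TE versus SE. Igf2, the fetal growth factor whose mRNA gave the IGF2BP family its name, had 5244 and 5910 CPM in TF, 8592 and 8678 CPM in TE, 117 and 126 CPM in SF, and 1109 and 3190 CPM in SE. It was higher in TF than in SF by 5.52 ± 0.49 on the log2 scale (adjusted p = 0.000164, edgeR), in SE than in SF by 4.15 ± 0.46 (adjusted p = 0.000113) and in TE than in SE by 2.01 ± 0.42 (adjusted p = 0.0198, and not called in a fit of TE and SE alone, adjusted p = 0.0606). The difference of 0.63 ± 0.41 in TE versus TF did not pass (adjusted p = 0.276), except without SE replicate 2 (adjusted p = 0.0441) or in a fit of TE and TF alone (adjusted p = 0.00221).

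H19, the imprinted noncoding RNA next to Igf2, was listed at 0 in both TE libraries. It had 307 and 84.2 CPM in TF, 37.4 and 28.9 CPM in SF, and 8306 and 18732 CPM in SE. Against the limit of 3 counts per library, TE was at least 1257-fold below the TF mean and at least 86832-fold below the SE mean. These bounds use group means, and the replicates of TF and of SE differed widely. SE was above SF by 8.67 ± 0.79 on the log2 scale (adjusted p = 6.72e-05, edgeR). The log2 difference of 2.56 ± 0.61 in TF versus SF was lost without TF replicate 1 (adjusted p = 0.0724) or SF replicate 1 (0.0635).

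Cdkn2a, the locus of the p16 and p19 cell cycle inhibitors that HMGA2 is known to repress, had 6.90 and 3.03 CPM in TF, 48.1 and 56.9 CPM in TE, 0.581 and 0.0673 CPM in SF, and 78.2 and 71.6 CPM in SE. It rose in the same comparisons as Hmga2, by 3.40 ± 0.47 in TE versus TF (adjusted p = 0.000719, edgeR) and by 7.85 ± 0.64 in SE versus SF (adjusted p = 2e-05). Its neighbour Cdkn2b (p15) rose by 6.19 ± 0.59 in SE versus SF, and Ccna2, the cyclin A2 gene that HMGA2 is known to induce, by 4.55 ± 0.37. In TF versus SF, Ccna2 was higher by 4.12 ± 0.37, Cdkn2a by 3.94 ± 0.64 and Cdkn2b by 3.75 ± 0.56. The Cdkn2a call in TF versus SF was lost in an edgeR fit of TF and SF alone (adjusted p = 0.1). In SF replicate 2, Cdkn2a lay under the 3-count limit of 0.202 CPM. The sizes of its differences against SF are therefore uncertain.

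The relatives of HMGA in the HMGB and HMGN families, which also bind DNA or nucleosomes, were not called in TE versus TF (0 of 7 by edgeR and by DESeq2, with 1 at an unadjusted p under 0.05). In SE versus SF 4 were higher, namely Hmgn2 (1.38 ± 0.22), Hmgb2 (1.04 ± 0.26), Hmgb1 (1.02 ± 0.22) and Hmgn1 (0.98 ± 0.23). In TF versus SF 4 were higher, with Hmgn2 at 1.80 ± 0.23, Hmgn3 at 1.48 ± 0.48, Hmgb2 at 1.09 ± 0.26 and Hmgn1 at 0.81 ± 0.23. The calls of Hmgn1, Hmgn3 and Hmgb2 in TF versus SF were lost without TF replicate 1 or SF replicate 1, and those of Hmgn1 and Hmgn3 also without TF replicate 2 or either TE replicate. With all libraries kept, Hmgn1 and Hmgn3 were also lost with median-ratio scaling (adjusted p = 0.0678 and 0.0718, edgeR). The same held with glmTreat (adjusted p = 0.0677 and 0.0679). In TE versus SE 0 of 7 were called by edgeR and 1 by DESeq2, with 1 at an unadjusted p under 0.05. The edgeR shares over all tested genes were 26.1% in TE versus TF, 40.7% in SE versus SF, 24.2% in TF versus SF and 7.21% in TE versus SE.

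Cell cycle genes were counted beside the rise of Hmga1, Hmga2 and Igf2bp2 in culture. Of 12 proliferation genes, 9 were called higher and 1 lower in SE versus SF, among them Mki67 (5.17 ± 0.42), Top2a (5.08 ± 0.40), Ccnb1 (4.82 ± 0.57) and Bub1 (4.63 ± 0.55). In TE versus TF only Aurka was called (1.74 ± 0.43, adjusted p = 0.0146, edgeR), and not without TF replicate 2 (adjusted p = 0.0773) or TE replicate 1 (0.09). The summed level of the 12 was 874 and 946 CPM in TF, 1074 and 1005 CPM in TE, 418 and 208 CPM in SF, and 1845 and 816 CPM in SE. Between the fresh groups 8 were higher in TF, with Mki67 at 4.86 ± 0.41, Top2a at 4.14 ± 0.39, Mcm2 at 3.36 ± 0.43 and Ccnb1 at 3.27 ± 0.55. In TE versus SE 0 of 12 were called by edgeR and 1 by DESeq2, with 2 at an unadjusted p under 0.05. The edgeR shares over all tested genes were 26.1% in TE versus TF, 40.7% in SE versus SF, 24.2% in TF versus SF and 7.21% in TE versus SE. SE replicate 1 had the higher level of the 2 SE libraries in Hmga1, Hmga2, Igf2bp2 and the proliferation sum. The same held for Igf2bp3 (2.40 and 1.77 CPM), which was lower in SE than in SF, and for the summed HMGB and HMGN genes (1668 and 1079 CPM). Lin28b and Igf2bp1 were higher in SE replicate 2, and Lin28a was near the detection limit in both.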

How the data were processed

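RNA-seq had been done on 2 biological replicates each of TF, TE, SF and SE, and groups came from the sample labels. Per gene symbol, the deposited values are estimated counts without normalization by the authors, and the submitters' processing notes name kallisto 0.44.0, CASAVA and GRCm38 (mm10). Libraries were stranded and paired-end. Kallisto divides reads between transcripts that share sequence, so near-identical genes depend on that division.

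Estimated counts were rounded, filtered with filterByExpr, scaled by TMM and fitted in 1 model over 4 groups with edgeR 4.0.16 (R 4.3.3). Calls needed a log2 fold change above 0.32 in size and a Benjamini-Hochberg adjusted p below 0.05. Alternatives were DESeq2 1.42.0, median-ratio scaling, no low-count filter, separate fits, a replicate term, glmTreat, leaving out each library, and Hmga1b added to Hmga1. The fit was tested on simulated data. All 7 genes are described; other lists name up to 4 called genes per comparison, those with the largest log2 difference at a mean of at least 1 CPM, with Igf2 and H19 always given. Similar genes are the top 3 by Pearson r among those with a mean of at least 5 CPM. A few genes that these rules name are not reported here. The genes and lists were chosen with earlier results of these data known. With 2 libraries per group the spread is poorly known (common dispersion 0.233). No replicates were near-identical (chi-square per degree of freedom between 11.7 and 87.2).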

Additional observations from a re-analysis of the deposited data

Results flagged for a closer look

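The difference between the lineages in the effect of culture was tested as (TE versus TF) minus (SE versus SF). By edgeR's quasi-likelihood test with Benjamini-Hochberg adjustment, 14.3% of all tested genes and 0 of the 7 genes were called. At an unadjusted p under 0.05 there was 1 of the 7, and DESeq2 called 1. Of the other lists, edgeR called 2 of 13 let-7 processing genes and 6 of 20 let-7 targets. It also called 6 of 9 genes downstream of HMGA2 or bound by IGF2BP proteins, 2 of 7 HMGB and HMGN genes, and 7 of 12 proliferation genes. Around the 7 genes, Hmga2-ps1 differed by 2.80 on the log2 scale (adjusted p = 0.0431), Tut4 by 1.18 (adjusted p = 0.0177), Prkra by -2.25 (adjusted p = 0.0328), Hmgn2 by -1.34 (adjusted p = 0.0195) and Hmgb1 by -1.22 (adjusted p = 0.0285). Each of the last 4 was lost without 1 or more libraries, TE replicate 1 among them (adjusted p without it between 0.0877 and 0.162).

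Among let-7 targets, Myc differed by 2.98 (adjusted p = 0.000843) and Ccnd2 by -2.45 (adjusted p = 0.00229). Mycn, at 0 in SE, differed with an adjusted p of 0.0009995. Of the genes downstream of HMGA2 or bound by IGF2BP proteins, H19, at 0 in TE, differed with an adjusted p of 9.17e-05, Cdkn2b by -5.46 (adjusted p = 0.0015), Cdkn2a by -4.45 (adjusted p = 0.00529), Ccna2 by -4.39 (adjusted p = 0.000551) and Igf2 by -3.51 (adjusted p = 0.0046). Cdkn2a was under the limit of 3 counts in SF replicate 2, so the size of its difference is uncertain. The cell cycle genes Mki67 (-5.05), Top2a (-4.61), Ccnb1 (-3.90) and Bub1 (-3.73) also differed (adjusted p between 0.000481 and 0.0073).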

How the results depend on the processing

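Of 485 refits of the log2 differences of the 7 genes over 5 comparisons, 429 kept direction and call, 15 lost a call, 26 gained one and 15 turned direction, all 15 in fits without 1 library and all for differences that were not called. Adding the counts of Hmga1b to Hmga1 lowered the number of the 7 genes called in TF versus SF from 2 to 1. DESeq2 called 1 of them in TE versus SE in place of 2, and 1 in the difference between culture effects, as median-ratio scaling did, in place of 0. Without the filter on low counts that number was 2. That fit took every gene's spread from the trend (prior degrees of freedom infinite, against 5.59). It also called 2260 genes of the table in TE versus SE, and DESeq2 2163, against 1268.

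Leaving out each library in turn gave between 2739 and 5439 genes called in TE versus TF, 2639 and 5072 in TF versus SF, 653 and 1698 in TE versus SE, and 1467 and 2996 for the difference between culture effects, in which between 0 and 2 of the 7 genes were called. In TF versus SF between 1 and 3 of the 7 were called. The differences that turned direction were small or rested on few counts, and the fitted values of Lin28a are no folds. In TE versus TF, Lin28b ranged from -2.85 to 0.33. In SE versus SF, Lin28a ranged from -5.64 to 2.11. In TF versus SF, Hmga2 ranged from -1.46 to 2.99, with 0.09 without TF replicate 2, and Igf2bp3 from -0.28 to 0.98. In TE versus SE, Lin28a ranged from -2.05 to 4.93, Lin28b from -3.29 to 0.39 and Igf2bp2 from -0.13 to 0.12. In the difference between culture effects, Lin28a ranged from -4.80 to 2.95, Lin28b from -0.36 to 3.33, Hmga1 from -0.99 to 0.35, Igf2bp1 from -6.42 to 2.46 and Igf2bp3 from -0.028 to 1.24. The causes were not tested.

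Libraries with equal replicate numbers showed no correlated deviations from their group means (correlations between -0.023 and 0.026). Whether they shared an origin is not given in the sources used here, and these correlations cannot show it. With the replicate block, 4 of the 7 genes were called in TE versus TF (Igf2bp1 added, adjusted p = 0.0462) and 3 in TF versus SF (Igf2bp1 added, adjusted p = 0.0497), and no call was lost. For list genes, 1027 of 1103 refits kept direction and call and 0 turned direction. The summed level of a list moved at most 1.11-fold with median-ratio scaling.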
